A study of Mus musculus with 4 samples.

Results

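The guanylate-binding proteins and the immunity-related GTPases are enzyme families that cells produce in response to interferon. The 10 genes described here are Gbp2, Gbp3, Gbp4, Gbp5, Gbp6, Gbp7, Igtp, Irgm1, Irgm2 and Iigp1, chosen by their symbols among the 32285 genes of the count matrices. Each of the 10 symbols matched 1 row. Their UMIs (unique molecular identifiers, each marking 1 captured RNA molecule) were compared across tumor, immune and stromal cells of 4 single-cell RNA-seq libraries. The libraries came from tumors of the mouse colon adenocarcinoma line MC38 grown in C57BL/6 mice and collected on day 13. Tumor cells carried wild-type RAC1 (WT) or a RAC1 A159V mutation knocked into the endogenous locus by CRISPR-Cas9, and mice received control IgG or an antibody to PD1, which gave 4 groups: A159V IgG, A159V anti-PD1, WT IgG and WT anti-PD1. The design asks how the RAC1 mutation of the tumor cells bears on the cells around them, without and with PD1 blockade. RAC1 genotype was changed in the implanted cells only, and the mutation in MC38 was homozygous. The study obtained more than 1 edited MC38 clone and reports that they behaved similarly, with some checks of the others in cultured cells. It presents data from a single clone unless it states otherwise, so in these libraries clone and genotype cannot be told apart. Each group held 1 library and the sources used here do not say how many mice went into it, so no comparison between groups has a replicate.

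Interferon gamma acts through its receptor and the kinases JAK1 and JAK2, and the transcription factor IRF1 takes part in switching on both families in most cell types. Guanylate-binding proteins are large GTPases of the dynamin superfamily that assemble on pathogen vacuoles and on bacteria and promote inflammasome activation. Among the immunity-related GTPases, Irgm1, Irgm2 and Igtp sit on host membranes and restrain the effector members, and Iigp1 is an effector that breaks open the vacuole of Toxoplasma. In tumors these genes are read as marks of interferon exposure in whichever cell carries them.

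The promoters of the members are shown because interferon is known to act on genes of both families through the interferon-stimulated response element (ISRE) and the gamma-activated site (GAS). RefSeq promoters on build GRCm38.p6, reaching from 250 bases before a start site to 50 after it, matched 7 of the 10 symbols, and Gbp4, Gbp6 and Iigp1 are named only. Each line gives the part of the promoter from 10 bases before the first match to 10 bases after the last, within the edges of the promoter, read 5′ to 3′ on the strand of the gene. Capitals mark GAAANNGAAA (ISRE-type) and TTCNNNGAA (GAS-type), each searched on both strands, with overlapping matches kept.
Gbp2, chr3:142620594-142620623, plus strand: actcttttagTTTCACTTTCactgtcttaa
Gbp3, chr3:142559989-142560024, plus strand: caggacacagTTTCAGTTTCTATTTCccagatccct
Gbp5, chr3:142496684-142496900, plus strand: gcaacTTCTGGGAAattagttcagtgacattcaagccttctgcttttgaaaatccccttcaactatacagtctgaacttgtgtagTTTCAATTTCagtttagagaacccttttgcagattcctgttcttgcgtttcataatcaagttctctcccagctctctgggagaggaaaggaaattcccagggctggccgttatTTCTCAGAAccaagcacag
Gbp7, chr3:142530220-142530302, plus strand: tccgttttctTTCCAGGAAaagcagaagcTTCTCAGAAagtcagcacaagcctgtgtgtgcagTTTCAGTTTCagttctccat
Igtp, chr11:58199501-58199541, plus strand: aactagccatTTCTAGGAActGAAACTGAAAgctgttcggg
Irgm1, chr11:48871425-48871460, minus strand: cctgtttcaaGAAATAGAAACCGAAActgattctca
Irgm2, chr11:58214892-58214932, plus strand: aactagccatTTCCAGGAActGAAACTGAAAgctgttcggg
GAAANNGAAA was found in at least 1 promoter of all 7 genes, in 7 of 8 promoters, since a second Gbp3 promoter held neither motif. Of all 32851 promoters, 3.44% held it. TTCNNNGAA was present in the promoters of Gbp5, Gbp7, Igtp and Irgm2, against 8.30% of all promoters, and the same 4 held both motifs, against 0.454% of all promoters. These matches describe letters in a window and no binding was measured.

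In the GENCODE M21 annotation of GRCm38 the members lie in groups of neighbors. Gbp5 chr3:142493978-142522344, Gbp7 chr3:142530342-142550149, Gbp3 chr3:142560026-142573209 and Gbp2 chr3:142620602-142638008 follow each other on the plus strand, while Gbp4 chr5:105115767-105139586 and Gbp6 chr5:105270702-105293698 lie on the minus strand. Igtp chr11:58199556-58207591 and Irgm2 chr11:58199618-58222782 are on the plus strand and Irgm1 chr11:48861968-48871683 on the minus strand. Exons of Gbp4 overlap those of Gbp8 and Gbp9 on the same strand, and exons of Igtp overlap those of Irgm2, so the split of reads within these 2 sets is uncertain. Reads were counted near the 3′ ends of transcripts, so levels are compared for 1 gene across cells and never between genes.

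The matrices held 33228 cell barcodes with between 54402632 and 125227747 UMIs per library, of which 29184 cells were analyzed (6867, 6466, 7603 and 8248 for WT with IgG and with anti-PD1 and then A159V with IgG and with anti-PD1, the order used for all lists of 4 values). Between 9 and 16 barcodes were shared by any 2 libraries. CD45+ and CD45- cells had been separated and mixed 2 to 1 before loading, so the shares of cell classes were set by the mix. Cells were grouped into 21 clusters without the 10 members or any listed interferon gene, and clusters were named from marker genes. The library labelled WT anti-PD1 stood apart: it held 43 tumor-like cells, too few for a profile, against 1794 to 2046 in the other 3, and 1576 stromal-like cells against 148 to 194. It also supplied 94.7% of endothelial-like and 97.3% of pericyte-like cells. Summed stromal markers in its T-like and joined monocyte and macrophage-like cells came to 658 and 710.1 CPM (UMIs per 1000000 UMIs of the summed cells), against 38.8 to 81.4 CPM in the same classes of the other libraries. Free RNA of stromal cells was not subtracted and its part in any value was not tested. In tumor-like cells all 8 tumor markers were detected in each profile, with sums of 1264, 1886 and 2203 CPM in WT IgG, A159V IgG and A159V anti-PD1, beside 453, 133 and 94.0 CPM of stromal, 23.8, 24.2 and 28.9 CPM of macrophage and 7.0, 4.74 and 5.18 CPM of T cell markers.

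All 10 members were detected in tumor, immune and stromal cells, and their summed level was highest in neutrophil-like and monocyte-like cells. Summed over the members, neutrophil-like cells carried 1949 ± 628 CPM and monocyte-like cells 1833 ± 426 CPM (mean ± SD over 4 libraries). Cd209a dendritic-like (1196 ± 483 CPM), macrophage-like (1053 ± 419 CPM) and T-like cells (1031 ± 116 CPM) followed, and stromal-like cells carried 793 ± 259 CPM. Tumor-like cells carried 569 ± 151 CPM (n = 3 libraries), above NK-like cells at 389 ± 61.0 CPM and B or plasma-like cells at 376 ± 67.5 CPM (n = 2). In the order of all 12 classes, endothelial-like cells (1 library, 1347 CPM) came directly below monocyte-like cells. Ranges over libraries of neighboring classes overlapped, apart from that step and the step from pericyte-like (1 library) to tumor-like cells. Monocyte-like cells (1404 to 2335 CPM) and Cd209a dendritic-like cells (777 to 1839 CPM) overlapped.

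**Figure D1:**
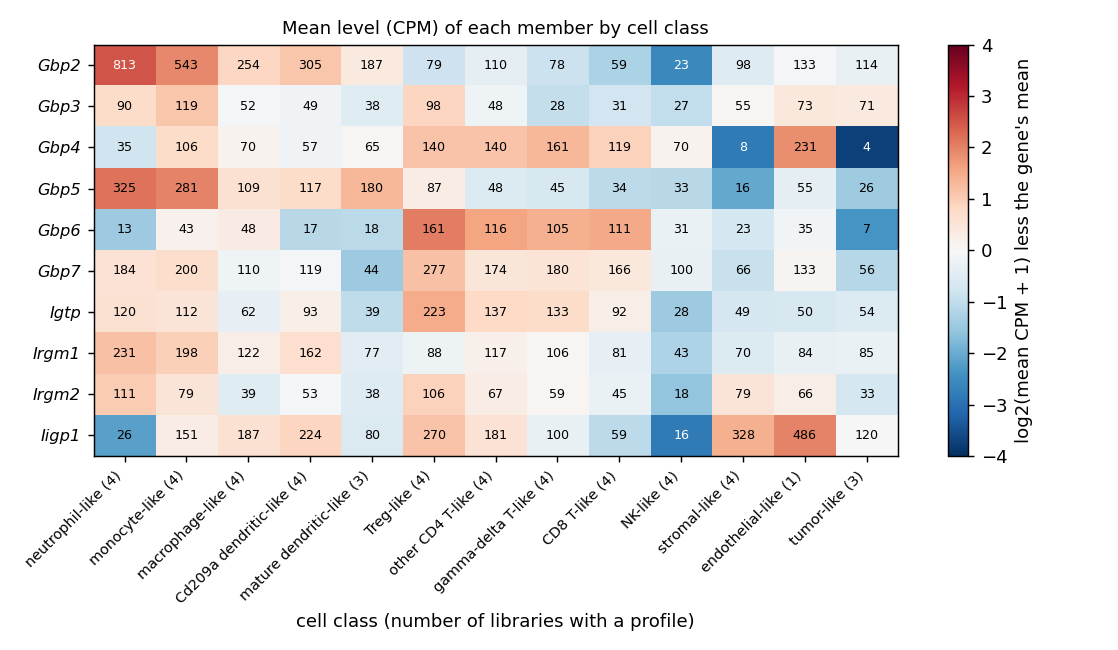
Heat map of the 10 members (rows) in 13 cell classes and T cell subsets (columns, with the number of libraries holding at least 50 cells). Printed numbers are mean CPM over those libraries and color is log2(mean CPM + 1) less the mean of that gene over the columns. Gbp2, Gbp5 and Irgm1 are highest in neutrophil-like and monocyte-like cells, Gbp4 and Gbp6 are lower in tumor-like cells than in the 4 T cell subsets, and Iigp1 is highest in endothelial-like and stromal-like cells.

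Of the guanylate-binding proteins, Gbp2, Gbp3, Gbp5 and Gbp7 were abundant in cells of the myeloid lineage. In neutrophil-like cells Gbp2 stood at 679 CPM with IgG and 1357 with anti-PD1 in WT tumors, and 475 and 741 in A159V tumors. In monocyte-like cells it stood at 629 CPM with IgG and 392 with anti-PD1 in WT tumors, and 354 and 798 in A159V tumors, and in T-like cells at 68.3 CPM with IgG and 67.8 with anti-PD1 in WT tumors, and 58.6 and 107 in A159V tumors. The lowest monocyte-like library was thus above the highest T-like library, and NK-like cells, at 23.1 ± 6.13 CPM, were lower still. Gbp5, which promotes NLRP3 inflammasome assembly, averaged 325 ± 77.0 CPM in neutrophil-like, 281 ± 93.2 in monocyte-like and 179.9 ± 37.5 in mature dendritic-like cells (n = 3), against 50.4 ± 3.28 in T-like and 16.3 ± 9.12 in stromal-like cells. The 3 leading classes overlapped one another and none overlapped T-like cells. For Gbp3 the tumor-like level lay among those of the immune classes, with 119 ± 39 CPM in monocyte-like, 71.1 ± 11.9 in tumor-like, 51.7 ± 18.1 in macrophage-like and 45.9 ± 4.21 in T-like cells.

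Gbp4, Gbp6 and Gbp7 had their high levels in lymphoid cells as well. In T-like cells Gbp6 was at 118 CPM with IgG and 116 with anti-PD1 in WT tumors, and 126 and 119 in A159V tumors. In macrophage-like cells it was at 42.7 CPM with IgG and 77.6 with anti-PD1 in WT tumors, and 22.9 and 50.4 in A159V tumors, and in tumor-like cells at 9.31 CPM in WT IgG, and 4.01 with IgG and 6.49 with anti-PD1 in A159V tumors. T-like cells did not overlap any other class for Gbp6. Tumor-like cells had the lowest mean, and of the other classes their range overlapped that of mature dendritic-like cells alone (17.8 ± 11.6 CPM, n = 3). Gbp4 in T-like cells was at 123 CPM with IgG and 157 with anti-PD1 in WT tumors, and 115 and 145 in A159V tumors. In stromal-like cells it was at 9.41 CPM with IgG and 7.65 with anti-PD1 in WT tumors, and 6.32 and 8.23 in A159V tumors, and in tumor-like cells at 5.53 CPM in WT IgG, and 1.81 with IgG and 4.06 with anti-PD1 in A159V tumors. Stromal-like and tumor-like cells were the bottom classes for Gbp4 and overlapped no other class and not each other, while the single endothelial-like profile (WT anti-PD1) read 231 CPM. Cells were then thinned to 1500 UMIs to set shares of cells with a UMI beside each other, since tumor-like cells had a median of 29328 to 42807 UMIs and T-like cells 1622 to 3058. A Gbp4 UMI was then found in 14.5% to 19.9% of T-like cells and in 0.294% to 1.42% of tumor-like cells (4.84% to 13.7% before thinning). The tumor-like share of Gbp4 is low enough that free RNA and expression cannot be told apart. Gbp7 averaged 200.1 ± 64.3 CPM in monocyte-like, 193 ± 33.3 in T-like and 184 ± 38.2 in neutrophil-like cells, which overlapped, and 55.8 ± 14.7 in tumor-like cells.

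Among the immunity-related GTPases, Igtp, Irgm1 and Irgm2 were spread over myeloid, T and stromal cells, whereas Iigp1 was set apart by its level in stroma. Igtp averaged 132 ± 21.4 CPM in T-like, 119.7 ± 59.2 in neutrophil-like, 112 ± 24.1 in monocyte-like and 53.7 ± 13.7 in tumor-like cells. Irgm1, which takes part in autophagy, averaged 231 ± 107 CPM in neutrophil-like, 198 ± 26.6 in monocyte-like and 162 ± 27.6 in Cd209a dendritic-like cells, and 85.1 ± 13.8 in tumor-like cells. Irgm2 averaged 111 ± 18.6 CPM in neutrophil-like, 79.3 ± 11.7 in monocyte-like, 79.0 ± 21.5 in stromal-like and 33.1 ± 8.52 in tumor-like cells. For these 3 genes NK-like cells stood near the bottom, at 28.4 ± 6.71, 42.6 ± 8.34 and 17.8 ± 7.35 CPM. In stromal-like cells Iigp1 was at 439 CPM with IgG and 166 with anti-PD1 in WT tumors, and 274 and 433 in A159V tumors. In tumor-like cells it was at 149.7 CPM in WT IgG, and 72.3 with IgG and 137 with anti-PD1 in A159V tumors, and in neutrophil-like cells at 30.3 CPM with IgG and 9.49 with anti-PD1 in WT tumors, and 46.9 and 18.7 in A159V tumors. All 4 stromal-like libraries were above every tumor-like and neutrophil-like library. The endothelial-like profile read 486 CPM and the pericyte-like profile 303 CPM, both from WT anti-PD1. Neutrophil-like cells, the top class for 4 of the 10 members, were thus next to last for Iigp1, above NK-like cells at 16.2 ± 4.05 CPM.

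Immune cells summed together carried more of 8 of the 10 members than tumor cells did. All immune-like cells of a library were summed and compared with its tumor-like cells in 3 libraries by edgeR's quasi-likelihood test with library as a block and Benjamini-Hochberg adjustment over all genes tested. Of the members, 8 were higher (n = 3 libraries) and 0 lower, and of all 9151 genes tested 39.8% were higher and 45.3% lower. Gbp4 stood at 78.4 ± 22.4 CPM in immune-like and 3.80 ± 1.87 CPM in tumor-like cells, a log2 difference of 4.52 [SE 0.25, adjusted p = 3.79e-05] or 23.0-fold. Gbp6 differed by 3.08 [SE 0.15, adjusted p = 2.51e-05], 8.44-fold, and Gbp5 by 2.63 [SE 0.10, adjusted p = 1.18e-05], 6.20-fold. Gbp7, Gbp2, Igtp, Irgm2 and Irgm1 followed with log2 differences of 1.61, 1.36, 0.86, 0.85 and 0.73. The ranges of the 2 classes did not overlap for any of the 8, and how many of all genes had no overlap was not counted. Single immune classes differed from this sum. NK-like means were below tumor-like means for Gbp2 (23.1 and 114 CPM), Igtp, Irgm1 and Irgm2, and above them for Gbp4, Gbp5, Gbp6 and Gbp7. B or plasma-like means were below for Gbp2, Gbp5, Gbp7, Igtp, Irgm1 and Irgm2, and above for Gbp4 and Gbp6. Mature dendritic-like means were below for Gbp7 (43.9 and 55.8 CPM), Igtp (38.7 and 53.7 CPM) and Irgm1 (76.5 and 85.1 CPM). They were above for Gbp2, Gbp4, Gbp5, Gbp6 and Irgm2. The T-like mean was below for Gbp2 (75.5 and 114 CPM) and above for the others. Gbp3 (72.1 ± 12.9 against 71.1 ± 11.9 CPM, 0.09 [SE 0.11, adjusted p = 0.478]) and Iigp1 (140.1 ± 57.9 against 119.5 ± 41.4 CPM, 0.27 [SE 0.11, adjusted p = 0.0672]) did not pass. With predicted doublets kept, WT anti-PD1 also reached 50 tumor-like cells and entered as 1 more library, and 4 members were called in place of 8. Without that library the same cells gave 9, and then Iigp1 passed as well (0.28, adjusted p = 0.0439).

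Stromal cells carried more Iigp1 and Irgm2 than tumor cells and than immune cells summed together. They carried less of most guanylate-binding proteins than the summed immune cells. Against tumor-like cells (n = 3 libraries), 4 of 9 tested members were higher and 0 lower by edgeR's quasi-likelihood test with Benjamini-Hochberg adjustment, beside 33.8% higher and 36.2% lower of 9116 genes. The 4 members are thus a share not far from that of all genes. Iigp1 stood at 382 ± 93.5 CPM in stromal-like and 119.5 ± 41.4 CPM in tumor-like cells, a log2 difference of 1.90 [SE 0.16, adjusted p = 1.12e-04]. Irgm2 differed by 1.60 [SE 0.13, adjusted p = 1.10e-04], Gbp6 by 2.14 [SE 0.21, adjusted p = 1.89e-04] and Gbp7 by 0.63 [SE 0.15, adjusted p = 0.00930]. Gbp4, too low to be tested here, was at 7.98 ± 1.56 against 3.80 ± 1.87 CPM. With doublets kept and WT anti-PD1 entering as 1 more library 0 members were called, and without that library 5 were. Against immune-like cells (n = 4 libraries), 2 members were higher and 7 lower, beside 38.7% higher and 35% lower of 9336 genes by the same edgeR test. Iigp1 (328 ± 132 against 145 ± 48.2 CPM, 1.32 [SE 0.25, adjusted p = 0.00237]) and Irgm2 (79.0 ± 21.5 against 53.3 ± 8.49 CPM, 0.71 [SE 0.10, adjusted p = 5.44e-04]) were higher in stroma, in all 4 libraries. For both genes the ranges over libraries of the 2 classes overlapped. Mean Irgm2 in neutrophil-like (111 CPM) and monocyte-like cells (79.3 CPM) ranked above that in stromal-like cells, and the other immune classes with a profile ranked below. Gbp4 was 10.1-fold and Gbp5 8.18-fold lower in stroma (-3.34 [SE 0.16, adjusted p = 2.07e-06] and -3.03 [SE 0.16, adjusted p = 3.76e-06]), and Gbp2, Gbp6, Gbp7, Irgm1 and Igtp were lower by log2 differences of -1.36, -1.14, -1.07, -0.80 and -0.70. Gbp3 was not called (-0.23 [SE 0.20, adjusted p = 0.334]). Without WT anti-PD1 the counts were again 2 higher and 7 lower.

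Within the immune cells, monocytes and macrophages carried more Gbp2, Gbp5, Gbp3 and Irgm1, and T cells more Gbp6. In joined monocyte and macrophage-like against T-like cells (n = 4 libraries, edgeR quasi-likelihood test, Benjamini-Hochberg adjustment), 4 of 10 members were higher and 1 lower, beside 37.4% higher and 33.9% lower of 8617 genes, so the share of members that were higher was close to that of all genes. Gbp2 was at 401 ± 137 against 75.5 ± 21.6 CPM (2.79 [SE 0.19, adjusted p = 5.69e-06]), which is 6.92-fold. Gbp5, Gbp3 and Irgm1 differed by log2 2.25, 1.28 and 1.16. Gbp6 was lower at 49.0 ± 20.8 against 119.6 ± 4.31 CPM (-0.95 [SE 0.26, adjusted p = 0.0120]). Gbp4 (-0.35 [SE 0.19, adjusted p = 0.131]), Gbp7 (0.11 [SE 0.12, adjusted p = 0.429]) and Igtp (-0.25 [SE 0.11, adjusted p = 0.0695]) were lower in CPM in the myeloid cells of all 4 libraries and did not pass, and for Gbp7 the scaling of the test turned the sign. Without WT anti-PD1, 3 members were called lower, with Gbp4 (-0.49, adjusted p = 0.00561) and Igtp (-0.23, adjusted p = 0.0407) added, and Iigp1 was called higher (0.46, adjusted p = 0.0223).

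T-like cells were split by markers into 4 named subsets and an unnamed one, and regulatory (Treg-like) cells carried the most of the summed members. Summed over the 10 members, Treg-like cells were at 1559, 1652, 1377 and 1531 CPM in the 4 libraries, CD8 T-like cells at 755, 821, 723 and 886, other CD4 T-like cells at 1338, 639.8, 1162 and 1410.3 and gamma-delta T-like cells at 956, 646, 1086 and 1288 CPM. Treg-like cells were above the other 3 named subsets in every library. Igtp was at 195, 221, 204 and 274 CPM in Treg-like and 95.1, 102, 71.1 and 98.8 CPM in CD8 T-like cells. Iigp1 was at 341, 259, 230.4 and 250.5 CPM in Treg-like and 69.7, 19.5, 78.4 and 66.6 CPM in CD8 T-like cells, with no overlap between these subsets for either gene. These subsets came from 1 library per group and were not tested against each other.

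In tumor cells the members were lower with A159V than with WT under IgG. Among the 8 members with a mean of at least 10 CPM the ratio was lowest for Gbp2 and Iigp1. Gbp2 was at 135 CPM in WT IgG and 63.8 CPM in A159V IgG, and Iigp1 at 149.7 and 72.3 CPM. On the scale log2(CPM + 1) the ratios were -1.07 [-1.13 to -1.02] and -1.04 [-1.09 to -0.99], where the interval in brackets is a 95% interval for counting error only and says nothing of the spread between mice. Gbp7 (-0.71), Irgm2 (-0.71), Igtp (-0.61), Irgm1 (-0.37) and Gbp5 (-0.32) were lower by less than 2-fold, and Gbp3 was level at -0.04 [-0.11 to 0.02]. Gbp4 (5.53 and 1.81 CPM) and Gbp6 (9.31 and 4.01 CPM) were under the mean of 10 CPM asked of a gene in this comparison, with ratios of -1.22 and -1.04. Of the 8 members that met it, 2 were at least 2-fold lower and 0 higher, beside 3.04% lower and 1.37% higher of all 8627 genes. The summed members were at 642 and 395 CPM, a ratio of -0.70 [-0.72 to -0.68].

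The 2 tumor libraries were made of different clusters, and within a cluster the difference was smaller. Cluster 5, led by Tafa1 and Sema3a, drew 79.5% of its cells from WT IgG, and cluster 6, led by Prl2c3 and Il1rl1, 45.3% from A159V IgG and 41.3% from A159V anti-PD1. In cluster 5 the summed members were at 749 CPM in WT IgG (1378 cells) and 699 in A159V IgG (211 cells), and in cluster 6 at 417 (524 cells) and 372 CPM (1835 cells). The log2 ratios of the sums were -0.10 and -0.16, against -0.70 for all tumor-like cells. Gbp2 was lower in A159V IgG in both clusters (-0.61 [-0.74 to -0.48] and -0.34 [-0.43 to -0.26]), while Iigp1 was -0.05 [-0.15 to 0.05] in cluster 5 and -0.22 [-0.31 to -0.13] in cluster 6. Gbp3 and Gbp5 were higher in A159V IgG in both clusters, at 0.20 and 0.45 in cluster 5 and 0.20 and 0.32 in cluster 6. Beyond counting error, 1 member was lower and 2 were higher in cluster 5, and 7 were lower and 2 higher in cluster 6. A cluster led by Adam2 scored highest for tumor markers but stayed unnamed by the rule, so the tumor-like values leave it out. It held 106 cells of WT IgG and 784 of A159V IgG, and there 3 members were lower in A159V IgG and 0 higher beyond counting error. Shares of all genes beyond counting error were not counted in any of these clusters. In tumor-like cells without a UMI of Ptprc, Col1a1, Col1a2, Col3a1 or Dcn (435, 644 and 430 cells of WT IgG, A159V IgG and A159V anti-PD1), the summed members were at 646, 437 and 714 CPM, and 0 members were 2-fold lower in A159V IgG. Stromal markers in tumor-like cells were also higher in WT IgG (above), and their part in the difference was not tested beyond these cells.

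**Figure D2:**
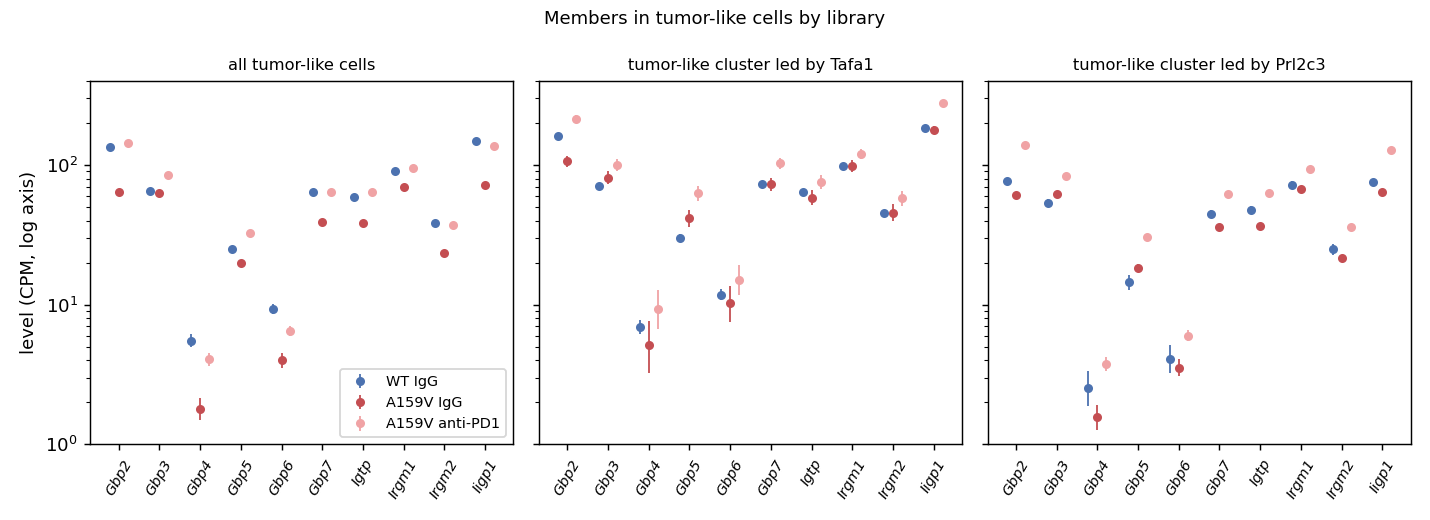
Level of each member in tumor-like cells (CPM, log axis) in WT IgG, A159V IgG and A159V anti-PD1, 1 library each, for all tumor-like cells and for the clusters led by Tafa1 (cluster 5) and Prl2c3 (cluster 6); bars are 95% exact Poisson intervals for counting error only. A159V IgG is lowest for each member in all tumor-like cells, at 63.8 CPM for Gbp2 against 135 and 143 CPM.

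All 10 members were higher in tumor cells of A159V anti-PD1 than of A159V IgG, beyond counting error. How many of all genes passed counting error was not counted, and the median log2 ratio of all genes tested was 0.05. Gbp2 was at 63.8 CPM in A159V IgG and 143 CPM in A159V anti-PD1, a log2 ratio of 1.15 [1.10 to 1.20]. Iigp1 was at 72.3 and 137 CPM (0.91 [0.86 to 0.96]), and the other 8 ratios lay between 0.42 for Gbp3 and 0.85 for Gbp4. Gbp2 was the 1 member of 8 tested that was at least 2-fold higher, beside 0.0821% of all 8528 genes, and 0 members were 2-fold lower, beside 0.0469%. The summed members went from 395 to 669 CPM (0.76 [0.74 to 0.78]). The summed members were higher in both tumor-like clusters and in a cluster that stayed unnamed: 699 and 1035 CPM in cluster 5, 372 and 648 CPM in cluster 6, and 274 and 468 CPM in the unnamed cluster led by Adam2 and Ptcra. In each of the 3 clusters all 10 members were higher beyond counting error, again without a count of all genes beside it. This comparison and the one between genotypes share the A159V IgG library, so its values enter both, and a difference between libraries and an effect of treatment cannot be told apart. The same comparison could not be made in WT, where the anti-PD1 library held 43 tumor-like cells.

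At equal depth, fewer tumor cells of A159V IgG held a member UMI, and they held fewer. All tumor-like cells were thinned to 10000 UMIs, leaving out 149, 122 and 69 shallower cells of WT IgG, A159V IgG and A159V anti-PD1. A UMI of any member was then found in 92.6%, 89.4% and 94.9% of cells (97.9%, 97.5% and 99.2% before thinning), with medians of 5, 3 and 5 UMIs per cell. Gbp2 was found in 54.4%, 37.2% and 56.8%, and Iigp1 in 53.7%, 38.1% and 51.1%. Gbp3 was found in 43.7%, 42.3% and 51.2%, so its share in A159V IgG was close to that in WT IgG. These shares pool tumor-like clusters 5 and 6. The clusters held 1378 and 524 cells in WT IgG, 211 and 1835 in A159V IgG and 122 and 1672 in A159V anti-PD1. The part of this mix in the shares was not tested. NK-like cells (median 3230 to 3906 UMIs), the class lowest in Iigp1, held a UMI of it in 1.82% to 3.10% of cells thinned to 1500 UMIs, where tumor-like cells held one in 9.89% to 18.1%.

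Monocytes and macrophages showed the same order of the A159V IgG library, below WT IgG and below A159V anti-PD1, for Gbp2 and Iigp1. In the joined class Gbp2 was at 400.5 CPM with IgG and 457 with anti-PD1 in WT tumors, and 214 and 534 in A159V tumors, and Iigp1 at 177 CPM with IgG and 255 with anti-PD1 in WT tumors, and 81.6 and 205 in A159V tumors. Between A159V IgG and WT IgG the ratio was -1.11 [-1.25 to -0.97] for Iigp1, -0.90 [-0.99 to -0.82] for Gbp2 and -0.87 [-1.12 to -0.63] for Gbp6, while Gbp5 was level at 0.06 [-0.05 to 0.17]. Iigp1 was the 1 of 10 members at least 2-fold lower and 0 were higher, beside 0.38% lower and 0.446% higher of 7628 genes. Between A159V anti-PD1 and A159V IgG, Gbp2 (1.32 [1.23 to 1.40]), Iigp1 (1.32 [1.18 to 1.46]) and Gbp4 (1.10 [0.91 to 1.28]) were at least 2-fold higher and 0 members lower, beside 0.615% higher and 0.222% lower of 7641 genes. The summed members were at 1473 CPM with IgG and 1479 with anti-PD1 in WT tumors, and 1044 and 1767 in A159V tumors. By cluster, the ratio of the sums between A159V anti-PD1 and A159V IgG ranged from 0.27 in cluster 3 (monocyte-like, led by Lyz2 and Klra2) to 1.89 in cluster 1 (macrophage-like, led by Cxcl3 and Pf4), where the sums were 350.4 and 1304 CPM.

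Between WT anti-PD1 and WT IgG the summed members of the joined class were level (0.01 [-0.03 to 0.04]) while single members and clusters differed in both directions. Gbp4 (0.82), Gbp6 (0.65), Iigp1 (0.53) and Gbp2 (0.19) were higher in WT anti-PD1 and the other 6 lower, down to -0.63 for Irgm2. None reached 2-fold: 0 members were lower and 0 higher, beside 5.88% lower and 7.2% higher of 7844 genes. Monocyte-like cells summed to 2029 CPM in WT IgG and 1404 in WT anti-PD1, and macrophage-like cells to 915 and 1482 CPM. WT IgG held 1775 monocyte-like and 1231 macrophage-like cells and WT anti-PD1 146 and 1729, so the joined class was made of different cells. Cluster 0, led by Mrc1 and Ccl6, had 70.8% WT anti-PD1 cells, and there the sums were 965 and 1371 CPM (0.51 [0.39 to 0.62]). In cluster 1 they were 668 and 2535 CPM (1.92 [1.81 to 2.03]) with all 10 members higher, in cluster 4 (C1qa, C1qc) 1031 and 1488 CPM, and in cluster 3 1554 and 520.3 CPM (-1.58 [-1.83 to -1.33]). The 3 macrophage-like clusters were thus higher in WT anti-PD1 and monocyte-like cluster 3 lower.

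**Figure D3:**
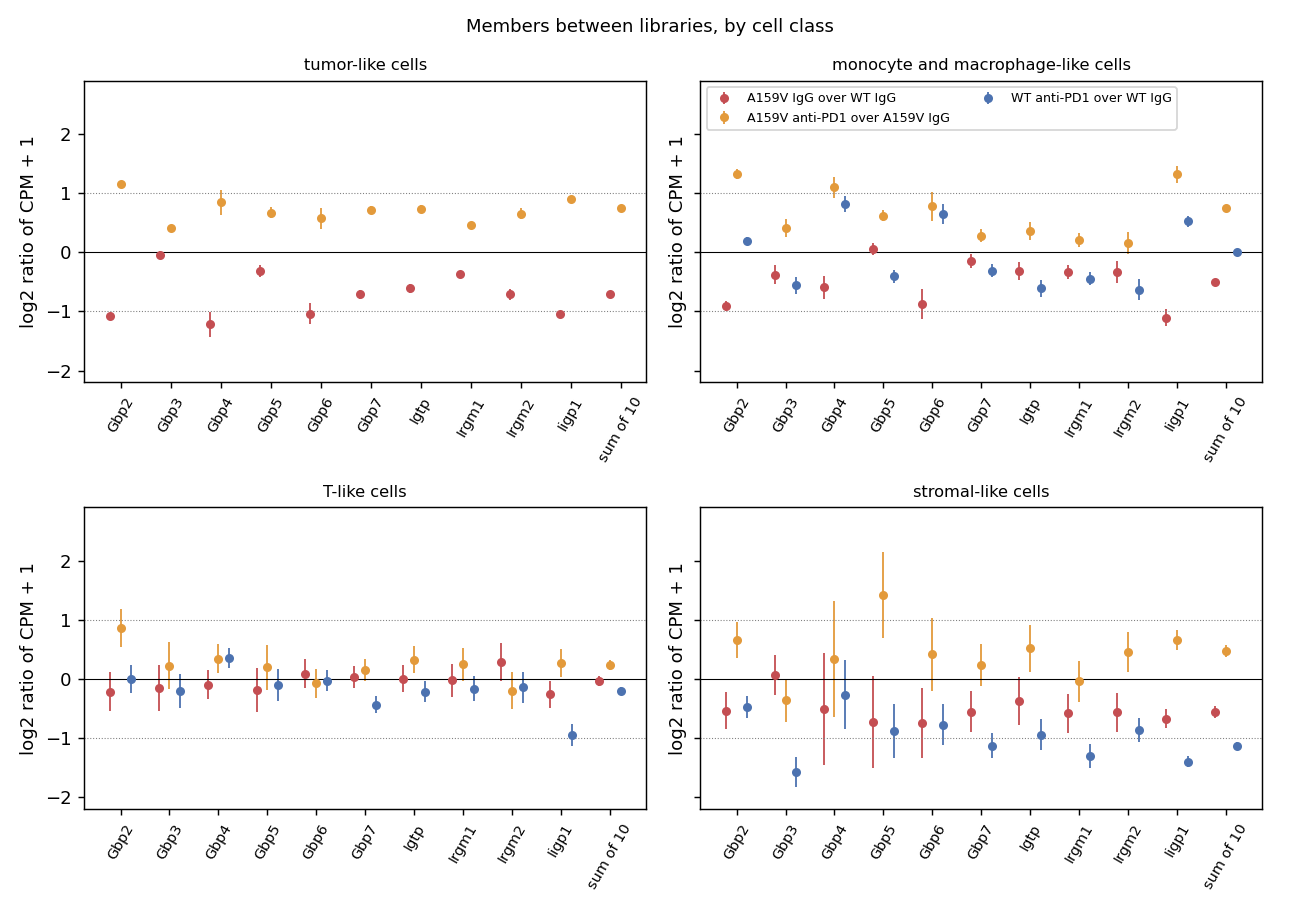
Log2 ratio of (CPM + 1) between 2 libraries for each member in tumor-like, joined monocyte and macrophage-like, T-like and stromal-like cells, for the genotypes under IgG (A159V over WT) and for anti-PD1 over IgG in each genotype; bars are 95% intervals for counting error and dotted lines mark 2-fold. Most ratios of A159V IgG over WT IgG lie under 0 and most of A159V anti-PD1 over A159V IgG above 0, while T-like cells stay between the 2-fold lines in all 3 comparisons.

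In the joined T-like class no member differed by 2-fold between libraries in any of the 3 comparisons: 0 lower and 0 higher of 10, beside 0.383% lower and 0.874% higher of 8350 genes between genotypes under IgG, 5.96% and 4.63% of 8421 between treatments in WT, and 0.461% and 0.733% of 8458 between treatments in A159V. The summed members were at 1038 CPM with IgG and 899 with anti-PD1 in WT tumors, and 1007 and 1181 in A159V tumors. Between genotypes under IgG, -0.26 [-0.50 to -0.03] for Iigp1 was the 1 ratio beyond counting error. Gbp2 was at 68.3 CPM with IgG and 67.8 with anti-PD1 in WT tumors, and 58.6 and 107 in A159V tumors, and its ratio between A159V anti-PD1 and A159V IgG was 0.86 [0.54 to 1.18]. Iigp1 was at 148 CPM with IgG and 76.2 with anti-PD1 in WT tumors, and 123 and 148 in A159V tumors, with -0.95 [-1.14 to -0.76] between WT anti-PD1 and WT IgG, where the median of all genes tested was 0.22. In CD8 T-like cells Iigp1 went from 69.7 to 19.5 CPM in WT (-1.78 [-2.29 to -1.27]), and Gbp4 from 92.6 to 152 CPM (0.71), so these 2 members differed in opposite directions in the same cells. The T cell subsets also differed in direction between WT anti-PD1 and WT IgG. In other CD4 T-like cells all 10 members were lower, 9 of them beyond counting error, with a median ratio of -1.10 and summed levels of 1338 and 639.8 CPM. In gamma-delta T-like cells 7 were lower beyond counting error (median -0.73), while the medians in CD8 T-like and Treg-like cells were 0.19 and 0.22. How many of all genes passed counting error was not counted in the T-like class or these subsets. Whether the lower values are particular to the members there was thus not tested. The joined T-like class was named before the second clustering, so its cells are not exactly those of the subsets together. The difference between subsets was not tested.

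Stromal cells were low in WT anti-PD1. Irgm1 was at 104 CPM with IgG and 41.6 with anti-PD1 in WT tumors, and 68.8 and 66.7 in A159V tumors, and Gbp3 at 69.4 CPM with IgG and 22.7 with anti-PD1 in WT tumors, and 72.6 and 56.2 in A159V tumors. For both genes, and for Iigp1 (values above), WT anti-PD1 was the lowest of the 4 libraries. Between WT anti-PD1 and WT IgG, Gbp3 (-1.57 [-1.82 to -1.32]), Iigp1 (-1.40 [-1.50 to -1.30]), Irgm1 (-1.30 [-1.50 to -1.10]) and Gbp7 (-1.13 [-1.34 to -0.91]) were at least 2-fold lower, 4 of 9 members tested, and 0 were higher, beside 4.64% lower and 4.03% higher of 8731 genes. The summed members were lower in both stromal clusters: they were 961 and 417 CPM in cluster 13 (Pi16, Clec3b) and 1130.2 and 516 CPM in cluster 14 (Tnc, Col12a1). Between A159V IgG and WT IgG 0 members were 2-fold lower and 0 higher, beside 0.83% lower and 0.748% higher of 8553 genes, and the sums had a ratio of -0.56 [-0.66 to -0.46]. Between A159V anti-PD1 and A159V IgG 1 member, Gbp5 (10.1 and 28.8 CPM, 1.42 [0.69 to 2.15]), was at least 2-fold higher and 0 lower, beside 1.57% higher and 1.78% lower of 8588 genes. The 2 stromal clusters differed here: the sums were 725 and 649 CPM in cluster 13 (-0.16 [-0.30 to -0.02]) and 670.2 and 1750.4 CPM in cluster 14 (1.38 [1.23 to 1.54]), from 62 and 52 cells, and the difference between clusters was not tested.

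Cd209a dendritic-like cells had opposite ratios in the 2 genotypes. Summed members were at 1291 CPM with IgG and 777 with anti-PD1 in WT tumors, and 877 and 1839 in A159V tumors. Iigp1 was at 240.0 CPM with IgG and 188 with anti-PD1 in WT tumors, and 113 and 353 in A159V tumors, and Gbp2 at 332 CPM with IgG and 171 with anti-PD1 in WT tumors, and 203 and 512 in A159V tumors. A159V anti-PD1 was the highest library for both genes. NK-like cells, low in most members, summed to 354 CPM with IgG and 465 with anti-PD1 in WT tumors, and 327 and 409 in A159V tumors, and in WT their Gbp4 was 1.27 [0.85 to 1.69] and their Gbp6 -0.90 [-1.46 to -0.34] in WT anti-PD1 against WT IgG. Neutrophil-like cells rested on 97 to 562 cells per library, with a ratio for Irgm1 of 1.25 [0.69 to 1.81] in WT anti-PD1 against WT IgG.

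Beside the members, 5 lists of related genes were followed: other GTPases of both families, interferon gamma signaling, other interferon gamma-induced genes, type I interferon-stimulated genes, and partners of the GTPases in inflammasome and autophagy pathways. In immune-like over tumor-like cells the edgeR test called 7 higher and 0 lower of 7 tested for other GTPases, 10 higher and 0 lower of 10 tested for interferon gamma signaling, 8 higher and 0 lower of 9 tested for other interferon gamma-induced genes, 10 higher and 0 lower of 10 tested for type I interferon-stimulated genes and 7 higher and 0 lower of 9 tested for partners. In stromal-like over immune-like cells the counts were 1 higher and 6 lower of 7 tested, 0 higher and 9 lower of 10 tested, 1 higher and 7 lower of 9 tested, 0 higher and 10 lower of 10 tested and 0 higher and 8 lower of 9 tested in the same order. Most tested genes of each list were thus lower in stroma than in immune cells, as 7 members were, while Iigp1 and Irgm2 were higher. In joined monocyte and macrophage-like over T-like cells they were 2 higher and 1 lower of 7 tested, 4 higher and 3 lower of 10 tested, 5 higher and 2 lower of 9 tested, 10 higher and 0 lower of 10 tested and 6 higher and 0 lower of 9 tested. In stromal-like over tumor-like cells the counts, in the first order, were 3 higher and 0 lower of 4 tested, 7 higher and 1 lower of 8 tested, 2 higher and 5 lower of 8 tested, 4 higher and 4 lower of 10 tested and 2 higher and 3 lower of 8 tested. The shares of all genes called were 39.8% higher and 45.3% lower in the first of these comparisons, 38.7% and 35% in the second, 37.4% and 33.9% in the third and 33.8% and 36.2% in the last.

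In both anti-PD1 comparisons the medians of the members lay closer to those of the other interferon gamma-induced genes than to those of the type I genes, in each class measured. Over all 10 type I genes in the files, the median log2 ratio of WT anti-PD1 over WT IgG was -2.00 in joined monocyte and macrophage-like, -2.00 in T-like and -2.03 in stromal-like cells, and all 10 were at least 2-fold lower in each class. The medians of the members there were -0.36, -0.16 and -0.92, and of the other interferon gamma-induced genes -0.56, -0.41 and -0.65. The latter list has 11 genes, and over those that met the mean of 10 CPM its medians were -0.56, -1.10 and -0.86. In T-like cells 4 of its 7 genes tested were at least 2-fold lower, against 0 of 10 members. Ifit3 was at 589 and 35.3 CPM in joined monocyte and macrophage-like cells of WT IgG and WT anti-PD1, whereas Gbp2 was at 400.5 and 457 CPM. For A159V anti-PD1 over A159V IgG the type I medians were -0.07, -0.60, -0.52 and -0.63 in tumor-like, joined monocyte and macrophage-like, T-like and stromal-like cells. The members had medians of 0.70, 0.52, 0.23 and 0.43 and the other interferon gamma-induced genes of 0.53, 0.34, 0.04 and 0.53. Medians of all genes tested in these comparisons lay between 0.01 and 0.22. In the comparison of genotypes under IgG the members had medians of -0.71, -0.36, -0.06 and -0.56 in the 4 classes, the other interferon gamma-induced genes -0.59, -0.32, 0.03 and -0.51, and the type I genes -0.14, 0.00, 0.18 and -0.46. In stromal-like cells the type I median was thus close to that of the members. The interferon gamma signaling list had medians of -0.34, -0.15, -0.07 and -0.02, other GTPases -0.52, -0.32, 0.08 and -0.22, and partners -0.02, -0.13, -0.11 and -0.10.

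**Figure D4:**
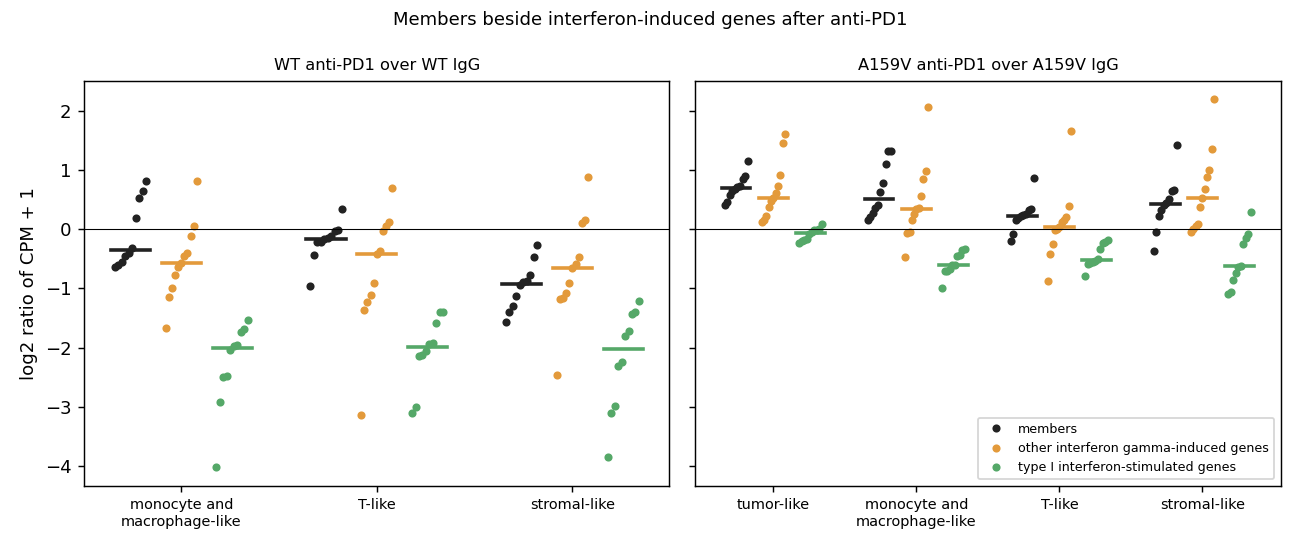
Log2 ratio of (CPM + 1) for the members, the other interferon gamma-induced genes and the type I interferon-stimulated genes by cell class, with a panel for anti-PD1 over IgG in WT and another for A159V. Points are single genes and horizontal bars are the medians of each list. The type I genes lie near -2 in WT anti-PD1 over WT IgG, where the medians of the members are -0.36, -0.16 and -0.92.

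Ifng in T-like cells and Irf1 in tumor-like cells were also at their lowest in A159V IgG. Ifng, the ligand, was at 188 CPM with IgG and 152 with anti-PD1 in WT tumors, and 68.3 and 184 in A159V tumors in T-like cells, and at 115, 67.6, 41.5 and 48.4 CPM in NK-like cells. Irf1 was at 162, 99.2 and 152 CPM in tumor-like cells of WT IgG, A159V IgG and A159V anti-PD1. Ifngr1, a chain of the receptor, was at 36.8, 22.7 and 21.9 CPM in the same cells, not higher in A159V anti-PD1. Whether Ifng, Irf1 and the members are linked was not tested. Tumor-like values here pool clusters 5 and 6, whose shares differed between the libraries. Cxcl9, an interferon gamma-induced chemokine that attracts T cells, was at 35.8, 18.0 and 51.1 CPM in tumor-like cells, 177, 114, 27.0 and 116 CPM in joined monocyte and macrophage-like cells and 298, 131, 79.6 and 368 CPM in stromal-like cells, the last 2 lists over all 4 libraries. Of the related GTPases, Ifi47 was at 84.1, 47.1 and 68.8 CPM and Gbp9 at 8.36, 5.12 and 7.31 CPM in tumor-like cells, again lowest in A159V IgG. Gbp11, Gm12250 and Mx1 were not analysed here.

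Across the 41 profiles of a class in a library with at least 50 cells, the 5 genes of 9460 whose log2(CPM + 1) had the highest Pearson r with that of the summed members were Parp10 (0.84), Ifi47 (0.84), Nfkbiz (0.83), Nr4a1 (0.81) and Samhd1 (0.80). Among the members, Gbp2 and Irgm1 (0.85), Gbp2 and Gbp5 (0.80), Igtp and Irgm1 (0.80) and Gbp4 and Gbp6 (0.76) were alike, while Gbp2 and Gbp6 were not (-0.01). Iigp1 was the member least like the rest, with its highest r at 0.32, to Irgm2. Profiles of 1 library share depth and free RNA and profiles of joined classes were not used, so these values are a description. Igtp overlaps Irgm2 and Gbp4 overlaps Gbp8 and Gbp9 in the annotation, as given above.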

How the data were processed

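Single-cell RNA-seq of 4 tumor libraries was analyzed. The authors deposited one filtered matrix of raw UMI counts per library, from Cell Ranger (the file headers name version 7.2.0 and the submitters' processing notes 5.0.1) on mm10 with introns included. Their removal of ambient RNA and doublets came after these files and was not repeated in the same form. Cells with more than 500 genes were kept, predicted doublets (0.8% per 1000 cells, from simulated doublets) were removed, and 2000 variable genes, without the members and listed genes, gave 20 components, 20 neighbors and 21 Leiden clusters at resolution 1 (scanpy 1.11.5, igraph 0.11.9). Clusters were named from fixed markers by a rule adjusted after a first output, as were T cell subsets. UMIs were summed per class and library where 50 cells or more were present, and scaled to CPM without subtracting background. Groups of 1 library allowed no test. Ratios used CPM + 1 for genes with a mean of 10 CPM, with 95% intervals from counting error only. Classes were compared by edgeR 4.0.16 (R 4.3.3, quasi-likelihood, TMM, library as block, two-sided, Benjamini-Hochberg adjusted p under 0.05), which was tested on simulated counts. DESeq2 1.42.0, other filters, scalings, resolutions, pseudocounts, weights and libraries left out were tried as alternatives. Libraries served as the replicates of a class, and each came from a different group. The spread of a class difference over libraries thus mixes genotype and treatment with differences between tumors. With library as a block, p-values set the class difference against that spread only. All members are described, and list genes and leading genes of clusters were named by rule or where a result turned on them. The members and the lists were chosen with earlier results of these data known.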

Additional observations from a re-analysis of the deposited data

Results flagged for a closer look

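Members were flagged by a rule applied to these same values. The log2 ratio of anti-PD1 over IgG had to be negative in WT and positive in A159V. Both had to exceed 1.5-fold and counting error. How many of all genes met the rule was not counted. With 1 library per group none of these differences between genotypes was tested. Most of the flagged values lay in Cd209a dendritic-like cells. There the summed members had ratios of -0.73 in WT and 1.07 in A159V. The values were -0.96 in WT and 1.33 in A159V for Gbp2, -0.91 in WT and 0.92 in A159V for Gbp3, -0.81 in WT and 1.38 in A159V for Gbp4 and -0.90 in WT and 1.03 in A159V for Gbp5. Among the immunity-related GTPases they were -0.73 in WT and 1.03 in A159V for Igtp and -1.47 in WT and 0.81 in A159V for Irgm2. In monocyte-like cells Gbp2 had -0.68 in WT and 1.17 in A159V, where WT anti-PD1 held 146 cells. In stromal-like cells Gbp5 had -0.89 in WT and 1.42 in A159V, and Iigp1 -1.40 in WT and 0.66 in A159V. In other CD4 T-like cells Iigp1 had -1.94 in WT and 0.96 in A159V. Both the WT anti-PD1 library, which stood apart in its cells, and the A159V IgG library, which was low in the members, enter these values, and library and treatment cannot be told apart.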

How the results depend on the processing

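Of 272 recomputed counts of members past 2-fold, 244 stayed within 1.5 times the reported count, as did 109 of 116 counts of edgeR calls. A reported count of 0 that stayed 0 was scored as unchanged. Most of the reported 2-fold counts were 0, so this tally says little about the others. Single values moved more often: 97 of 280 ratios of a member in tumor-like cells and 33 of 136 ratios of the summed members moved by more than the counting error of the reported value. Members at least 2-fold higher in tumor-like cells of A159V anti-PD1 over A159V IgG (1 reported) were 2 with more than 1000 genes per cell, with doublets kept, with at most 10% mitochondrial UMIs, at resolution 0.5, with classes from a gate on markers, and with the cluster led by Adam2 and Ptcra counted as tumor-like (added after seeing the data). Those lower in A159V IgG over WT IgG (2 reported) were 4 without a filter and 0 with a pseudocount of 10 CPM or in cells without a UMI of 5 immune or stromal genes. With marker-gated classes, those lower in A159V IgG over WT IgG were 0 in monocyte and macrophage-like (1 reported) and 1 in stromal-like cells (0 reported). Weighting each cell equally gave 1 in T-like cells lower in WT anti-PD1, 1 higher in A159V anti-PD1 and 1 in stromal-like cells lower in A159V IgG, where 0 were reported, and median-of-ratios scaling gave 1 in T-like cells lower in WT anti-PD1. Those higher in stromal-like cells of A159V anti-PD1 (1 reported) were 0 at a mean of 50 CPM or a pseudocount of 10. At a fold of 1.5 the counts were larger by construction: in tumor-like cells 5 lower in A159V IgG and 6 higher in A159V anti-PD1, in monocyte and macrophage-like cells 4 lower in A159V IgG, 2 lower and 2 higher in WT anti-PD1 and 5 higher in A159V anti-PD1, in T-like cells 1 lower in WT anti-PD1 and 1 higher in A159V anti-PD1, and in stromal-like cells 4 lower in A159V IgG, 8 lower in WT anti-PD1 and 3 higher in A159V anti-PD1. By edgeR, members higher in immune-like than tumor-like cells (8 reported) were 4 with doublets kept, where WT anti-PD1 also entered, and 5 at a mean of 50 CPM, where fewer members were tested. In stromal-like over tumor-like cells 0 were higher with doublets kept (4 reported) and 1 lower without a filter (0 reported). In monocyte and macrophage-like over T-like cells, members lower (1 reported) were 2 with doublets kept and 3 at a mean of 50 CPM. Leaving out each library gave 8 to 9 higher in immune-like over tumor-like, 3 to 4 higher in stromal-like over tumor-like, 2 higher and 7 lower in stromal-like over immune-like, and 4 to 5 higher and 1 to 3 lower in monocyte and macrophage-like over T-like cells, with 3 lower without WT anti-PD1. Where no construction is named, the cause was not tested. The summed log2 ratio ranged over settings from -0.81 to -0.56 for A159V IgG over WT IgG and 0.70 to 0.86 for A159V anti-PD1 over A159V IgG in tumor-like cells, and changed sign only in monocyte and macrophage-like cells of WT anti-PD1 over WT IgG (-0.06 to 0.06). No paired analysis was possible because each group held 1 library, and library was the block of the class tests. Depth limits classes with under 100 cells, and intervals cover counting error only.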
